A study of Apostichopus japonicus with 3 samples.

Results

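Solute carriers and other membrane transporters were examined in intestinal messenger RNA of Apostichopus japonicus, a sea cucumber that stops feeding and becomes dormant in the warm season, a state called aestivation. The members are isotigs, assembled transcript sequences, whose best protein match is described with the words solute carrier, cotransporter, transporter, ATP-binding cassette, exchanger or aquaporin. Matches to family 25, to mitochondrial proteins and to nucleotide exchange factors were left out. The rule itself uses no expression value, but it was chosen with earlier results of these data known. The rule gave 126 of the 20712 isotigs listed in any library, or 126 of the 10174 with a protein match. The study has 3 libraries, each from intestines at 1 stage: non-aestivation, deep aestivation, or arousal, when animals leave aestivation. The labels give no treatment, strain, sex or age for any stage. The design text counts 15 or more individuals for every stage but does not say if their RNA was pooled. Values below are in the order non-aestivation, deep aestivation, arousal unless another order is named.

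Solute carriers move small molecules across membranes, either down their own gradient or against it by coupling to sodium or protons, and the gut epithelium uses them to take up sugars, amino acids, peptides, vitamins and ions. ABC transporters use ATP to move lipids, drugs and conjugates, mostly out of the cell, and aquaporins are channels for water and in some cases glycerol. Sodium-coupled uptake depends on the sodium/potassium ATPase, which keeps sodium low inside the cell.

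With 1 library per stage there was no spread between replicates, so no test was made and every statement compares libraries, not conditions. An isotig was called higher or lower when the log2 ratio of RPKM + 0.5 was at least 1 away from 0 and the exact conditional binomial interval of the ratio of read shares, at 99.9% confidence, excluded 1. RPKM is reads per kilobase of isotig, scaled to a common total of uniquely aligned reads, and RPM is the same without the length. Folds are ratios of read shares with exact 95% intervals, which cover counting error only. The 3 comparisons share libraries, so they are not independent of each other. The tables of the samples labelled non-aestivation and arousal carry each other's stage code in their names. Groups follow the labels here, and if the names were right instead, the words non-aestivation and arousal would change places throughout. A call in deep aestivation against both other libraries is the same either way. In bulk tissue, fewer cells of a type and less RNA per cell cannot be told apart.

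Read totals were 1.02 M, 0.893 M and 0.945 M. Gut epithelium markers were present in each, with 18642, 6970 and 54031 reads over 18 isotigs. The fatty acid binding protein isotig19264 gave 16574, 2849 and 51380 of these, most of the reads in non-aestivation and arousal but not in deep aestivation. Of the 17 with a mean RPKM of at least 1, 8 were higher and 2 lower in deep aestivation over non-aestivation (5.19% and 4.06% of all isotigs). In arousal over deep aestivation 4 were higher and 4 lower (3.37% and 5.31% of all isotigs). Of these 18 isotigs, 1, 1 and 0 were at 0 reads, and the pattern for meprin matched 0 isotigs. Markers of other tissues were present as well. Muscle markers summed to 2051, 1497 and 1343 RPM over 36 isotigs, of which 6, 6 and 9 were at 0. Neuron markers gave 632, 1041 and 846 RPM over 29 isotigs, 22 of them matched to acetylcholinesterase, with 2, 0 and 4 at 0. Coelomocyte markers gave 2946, 3573 and 2277 RPM over 31 isotigs, with 6, 5 and 4 at 0. Of the terms listed for gonad, vasa and bindin matched 0 isotigs. Only vitellogenin, a yolk protein, was found, with 511, 1605 and 2531 RPM over 2 isotigs, which does not by itself show gonad tissue. The part of these cell types in any transporter result was not tested.

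Transporter transcripts took about the same share of reads in the deep aestivation and arousal libraries and a smaller share in the non-aestivation library. The 126 members had 2285, 3949 and 4370 reads, which is 0.223% (95% exact interval 0.214 to 0.233), 0.442% (0.429 to 0.456) and 0.463% (0.449 to 0.476) of all reads. Their summed share was 1.98-fold higher in deep aestivation than in non-aestivation (1.88 to 2.08) and 2.07-fold higher in arousal than in non-aestivation (1.97 to 2.18). Arousal over deep aestivation was 1.05-fold (1.00 to 1.09). Summed RPKM was 1638, 3279 and 3970, so per length the arousal library was above deep aestivation. The 10 members with the most reads held 47.8%, 61.9% and 55.3% of these reads. Without them the other 116 members had 1193, 1504 and 1953 reads, and the folds were 1.44 (1.34 to 1.56) for deep aestivation over non-aestivation, 1.77 (1.65 to 1.91) for arousal over non-aestivation and 1.23 (1.15 to 1.31) for arousal over deep aestivation. The lower total in non-aestivation was thus also present outside the most abundant members.

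Of the members, 112 had a mean RPKM of at least 1 and were compared one by one. The other 14 had between 1 and 6 reads in all. In deep aestivation over non-aestivation, 15 members were higher (13.4%, against 5.19% of all 18352 isotigs that passed this filter) and 1 was lower (0.893%, against 4.06%). In arousal over deep aestivation, 12 were higher (10.7%, against 3.37%) and 6 lower (5.36%, against 5.31%), so the share of lower calls was near that of all isotigs. In arousal over non-aestivation, 22 were higher (19.6%, against 3.84%) and 4 lower (3.57%, against 5.21%). Isotigs with a protein match and at least 20 reads are called more often. Among them the shares were 11.3% and 5.86% in the first comparison, 7.17% and 7.45% in the second and 9.25% and 4.87% in the third. The 74 members with at least 20 reads had 18.9% and 1.35%, 14.9% and 8.11%, and 29.7% and 5.41%. By a 2-fold ratio alone, with no interval, 48 members were higher and 6 lower in the first comparison (24.5% and 17.7% of all isotigs), 31 and 26 in the second (15.3% and 25.6%) and 58 and 12 in the third (18.7% and 22.9%). The median log2 ratio of the 112 members was 0.72 in deep aestivation over non-aestivation, 0.13 in arousal over deep aestivation and 1.02 in arousal over non-aestivation. Over all isotigs it was 0.16, -0.16 and -0.04. With bounds used for members at 0 reads, their medians were 0.60, 0.13 and 0.84.

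**Figure D1:**
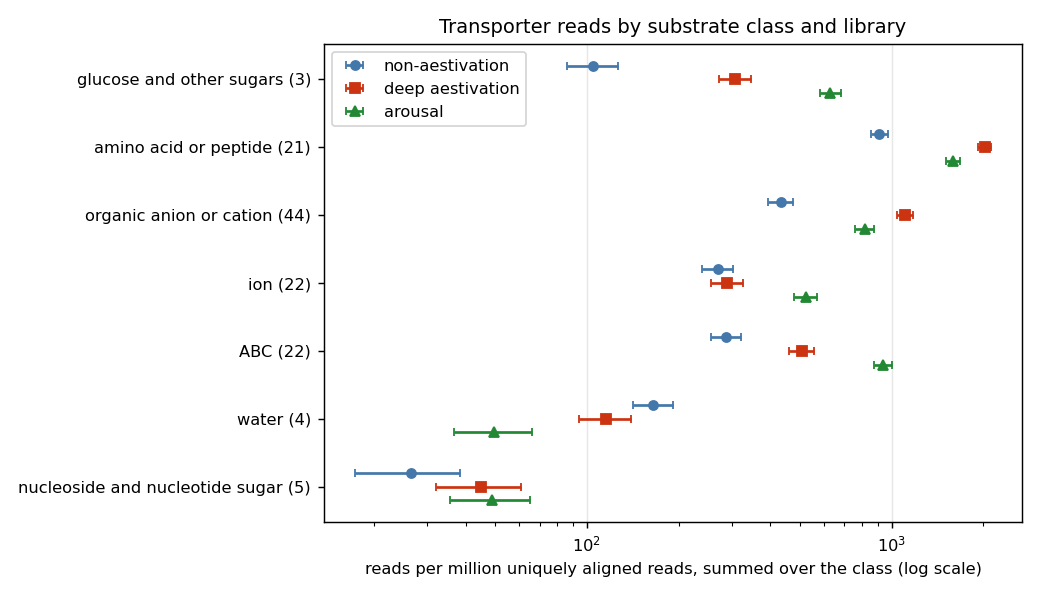
Summed RPM (log axis) of each substrate class, with the number of isotigs in brackets; points are single libraries and bars are exact 95% intervals for counting error. Sugar and ABC transporters were highest in arousal, organic ion transporters in deep aestivation, and aquaporins in non-aestivation. Much of the lead of organic ion transporters over arousal lay in isotig16483 and isotig09165. Amino acid transporters were highest in deep aestivation with all 21 isotigs but not without isotig06046.

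The sugar transporters were few, and their summed reads were the most unequal between arousal and non-aestivation of the substrate classes. The 3 isotigs had 107, 274 and 595 reads in all, 2.93-fold higher in deep aestivation than in non-aestivation (2.34 to 3.70), 2.05-fold higher in arousal than in deep aestivation (1.78 to 2.38) and 6.02-fold higher in arousal than in non-aestivation (4.89 to 7.46). Without isotig13835 the other 2 had 13, 64 and 55 reads, 5.64-fold higher in deep aestivation than in non-aestivation (3.07 to 11.2) and 0.812-fold in arousal over deep aestivation (0.556 to 1.18). Isotig13835 was matched to a fructose transporter, which carries fructose across the membrane. It had 94, 210 and 540 reads, or 50.8, 130 and 316 RPKM, and was called higher at each step, by 2.56-fold (2.00 to 3.30) and then 2.43-fold (2.07 to 2.86). The other fructose transporter, isotig14264, was apart in deep aestivation instead. Its 6, 42 and 12 reads (3.61, 29 and 7.82 RPKM) made it 8.02-fold higher in deep aestivation than in non-aestivation (3.39 to 23.1) and 3.70-fold lower in arousal than in deep aestivation (1.91 to 7.73). The match to SGLT-1, the sodium-driven glucose carrier of the vertebrate brush border, was isotig14172 with 7, 22 and 43 reads (4.15, 14.9 and 27.6 RPKM). It was called only in arousal over non-aestivation, 6.65-fold higher (2.96 to 17.5). Its 3.60-fold in deep aestivation over non-aestivation (1.49 to 9.98) and 1.85-fold in arousal over deep aestivation (1.08 to 3.24) were not called at this depth. The sugar transporters therefore covered both patterns, a stepwise order over the libraries and a single high library in deep aestivation.

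Amino acid and peptide transporters held the most transporter reads of the substrate classes in each library, and most of the abundant ones were low in non-aestivation. The 21 isotigs summed to 932, 1802 and 1502 reads, 2.21-fold higher in deep aestivation than in non-aestivation (2.04 to 2.40) and 1.27-fold lower in arousal than in deep aestivation (1.18 to 1.36). The lower sum in arousal rested on 1 isotig, the glycine transporter isotig06046 described below. Without it the class had 488, 1307 and 1418 reads, arousal over deep aestivation was 1.03-fold (0.95 to 1.11), and arousal was 3.14-fold higher than non-aestivation (2.84 to 3.49) in place of 1.74-fold (1.61 to 1.89). Summed RPKM, which weights short isotigs more, was 504, 1264 and 1278. Of the 20 past the filter, 5 were higher and 1 lower in deep aestivation over non-aestivation (25% and 5%, against 5.19% and 4.06% of all isotigs). In arousal over deep aestivation, 1 was higher and 1 lower (5% and 5%, against 3.37% and 5.31%). In arousal over non-aestivation, 6 were higher and 3 lower (30% and 15%, against 3.84% and 5.21%). The class thus had called members in both directions in each comparison.

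Among the carriers of large neutral amino acids, both isotigs matched to solute carrier family 43, member 2, a facilitative carrier of leucine and related amino acids in mammals, were low in non-aestivation. Isotig17668 had 95, 289 and 273 reads (94.0, 327 and 292 RPKM) and was 3.48-fold higher in deep aestivation (2.75 to 4.44) and 3.11-fold higher in arousal (2.45 to 3.97) than in non-aestivation. Isotig14983 had 52, 212 and 191 reads (36, 168 and 143 RPKM), with folds of 4.67 (3.43 to 6.45) and 3.97 (2.91 to 5.51). These isotigs have the same best match, and together they were 3.90-fold higher in deep aestivation than in non-aestivation (3.24 to 4.72). Neither was called in arousal over deep aestivation. The LAT-1-like isotig16381, matched to a carrier that exchanges large neutral amino acids, had 3, 18 and 10 reads and was called 6.87-fold higher in deep aestivation than in non-aestivation (2.01 to 36.4), a call lost under median-ratio and TMM scaling.

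Carriers of amino acids that also serve as transmitters were among the most abundant members. The isotig matched to a GABA neurotransmitter transporter, isotig15410, had 121, 371 and 563 reads (89.9, 316 and 452 RPKM). It was 3.51-fold higher in deep aestivation (2.85 to 4.35) and 5.04-fold higher in arousal (4.13 to 6.18) than in non-aestivation, and its 1.43-fold between the last 2 libraries (1.26 to 1.64) did not reach the 2-fold needed for a call. The high-affinity glutamate transporter isotig08557 had 73, 265 and 154 reads (30.5, 127 and 69.7 RPKM), 4.16-fold higher in deep aestivation (3.20 to 5.46) and 2.28-fold higher in arousal (1.72 to 3.06) than in non-aestivation. Its reads covered only 27.7%, 27.6% and 26.5% of its length. Isotig08558, with the same description and named after its counts were known, had 3, 8 and 12 reads and was not called. Neuron markers as a group were at 632, 1041 and 846 RPM in the same libraries, but 22 of these 29 isotigs matched acetylcholinesterase. Other neuron markers were mixed in their order. The neuronal acetylcholine receptor isotig05318 had 72, 2 and 2 reads, and the ELAV isotig04942 had 43, 40 and 16. The synaptotagmin isotigs had 17, 21 and 16 reads (isotig19720) and 13, 20 and 14 (isotig29060). The part of neurons in the values of these carriers was not tested.

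The glycine carriers went in different directions. The glycine transporter isotig06046 had 444, 495 and 84 reads (90.8, 116 and 18.6 RPKM) and was low in arousal, 6.24-fold lower than in deep aestivation (4.94 to 7.96) and 4.88-fold lower than in non-aestivation (3.86 to 6.24). A match to glycine transporter 2, isotig21824, had 36, 21 and 11 reads (52.3, 35 and 17.3 RPKM) and was 3.02-fold lower in arousal than in non-aestivation (1.51 to 6.59), which was not called under any of the 4 other scalings. Matches to solute carrier family 6 member 9, the glial-type glycine carrier of mammals, were high in arousal instead. Isotig20914 had 26, 24 and 105 reads (34.8, 36.8 and 152 RPKM), 4.13-fold higher in arousal than in deep aestivation (2.63 to 6.74) and 4.37-fold higher than in non-aestivation (2.82 to 7.0). The 4 isotigs with this match summed to 45, 51 and 160 reads, and isotig23312, with 6, 20 and 24, was 4.33-fold higher in arousal than in non-aestivation (1.72 to 12.9). So the arousal library was lowest for one glycine carrier sequence and highest for another.

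The cystine/glutamate transporter, which imports cystine in exchange for glutamate and so feeds glutathione synthesis, gave the 1 lower call in deep aestivation over non-aestivation. Isotig15733 had 23, 1 and 0 reads. The ratio was 20.1-fold lower in deep aestivation (3.26 to 827). With 3 reads taken as the floor of the arousal library, the ratio there was 7.08-fold lower, and the exact 95% interval began at 5.31-fold. The other isotig with this match, isotig15204 (named after its counts were known), had 11, 16 and 11 reads and was not called, and summed over the match the lower call in deep aestivation was lost. The peptide transporter PepT1, the proton-coupled carrier of short peptides in the vertebrate gut, was isotig16131 with 8, 17 and 4 reads. It was also chosen after its values were seen and was called in no comparison. It was 1 of 10 amino acid and peptide carriers without a call, which had 5 to 38 reads each over the 3 libraries, so every member of this class with more reads was called at least once.

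**Figure D2:**
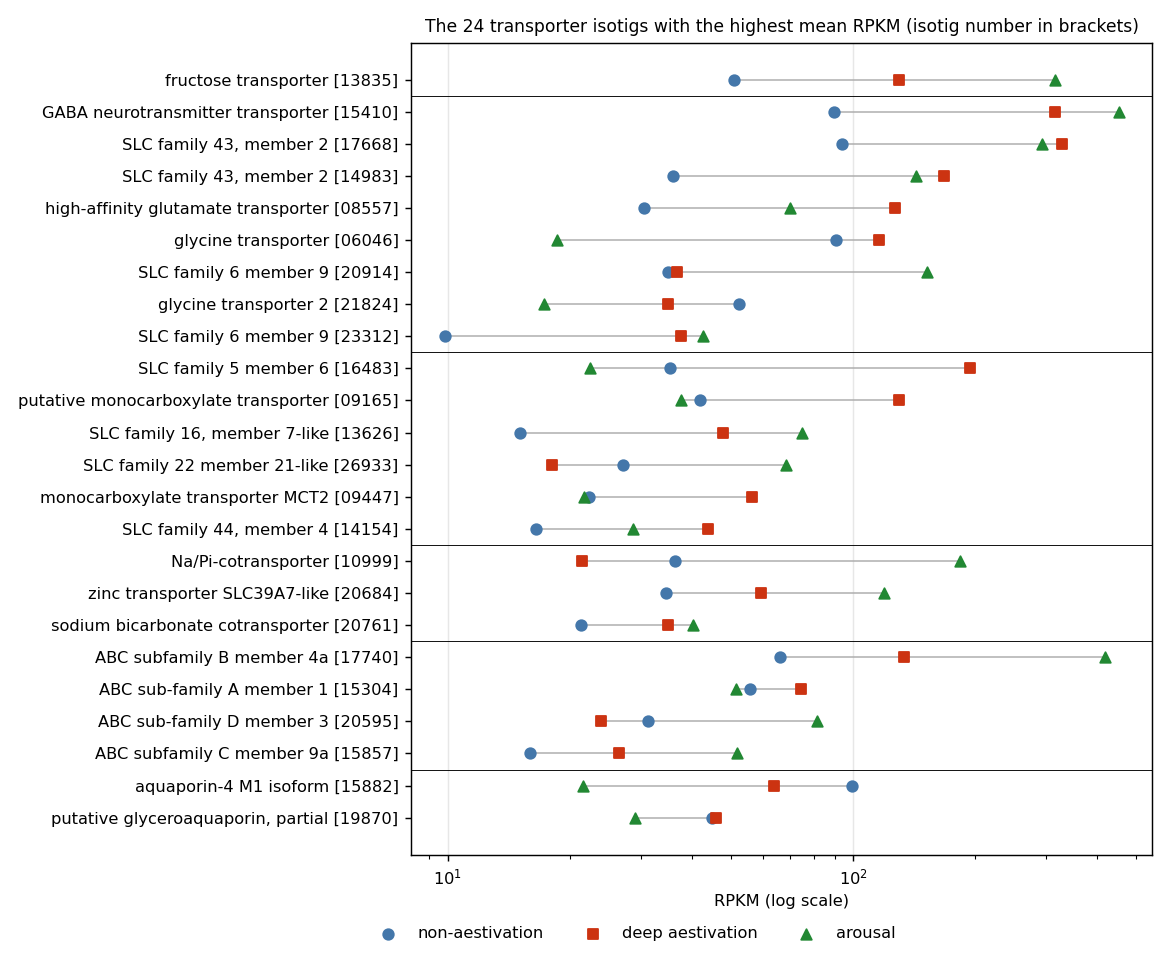
RPKM (log axis) of the 24 members with the highest mean RPKM, 1 point per library, grouped by substrate class between the horizontal lines (sugars, amino acids, organic ions, ions, ABC, water). Most amino acid carriers had their lowest point in non-aestivation, while several members had theirs in arousal, among them glycine transporter isotig06046, aquaporin-4, isotig16483, isotig09165 and isotig15304.

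The transporters of organic anions and cations, the largest class, were highest in deep aestivation as a sum. Much of the lead over arousal lay in isotig16483 and isotig09165, described below. Its 44 isotigs had 442, 987 and 772 reads, 2.56-fold higher in deep aestivation than in non-aestivation (2.28 to 2.87) and 1.35-fold lower in arousal than in deep aestivation (1.23 to 1.49). Of the 41 past the filter, 7 were higher and 0 lower in deep aestivation over non-aestivation (17.1% and 0%, against 5.19% and 4.06% of all isotigs). In arousal over deep aestivation, 4 were higher and 3 lower (9.76% and 7.32%, against 3.37% and 5.31%). In arousal over non-aestivation, 5 were higher and 0 lower (12.2% and 0%, against 3.84% and 5.21%). The median log2 ratio was 1.32, 0.13 and 1.32 in these comparisons. With bounds in place of ratios for members at 0 reads, these medians were 0.72, 0.13 and 0.59.

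Of the 4 members called higher in deep aestivation than in both other libraries, 3 were organic anion carriers and the fourth was the fructose transporter isotig14264. Isotig16483 matched solute carrier family 5, member 6, the sodium-dependent vitamin carrier that takes up biotin and pantothenate in mammals. It had 41, 197 and 24 reads (35.3, 194 and 22.4 RPKM), 5.50-fold higher in deep aestivation than in non-aestivation (3.91 to 7.90) and 8.69-fold lower in arousal than in deep aestivation (5.67 to 13.9). A second isotig with this match, isotig09071 (also named after its counts were known), had 58, 49 and 52 reads and showed no such peak. The other 2 matched monocarboxylate transporters, which carry lactate, pyruvate and ketone bodies with a proton.

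Isotig09165, a putative monocarboxylate transporter, had 76, 206 and 63 reads (41.8, 130 and 37.5 RPKM), 3.10-fold higher in deep aestivation than in non-aestivation (2.38 to 4.09) and 3.46-fold lower in arousal than in deep aestivation (2.60 to 4.66). Isotig09447, matched to MCT2, had 39, 86 and 35 reads (22.3, 56.3 and 21.7 RPKM), with folds of 2.53 (1.71 to 3.79) and 2.60 (1.74 to 3.97). In both, non-aestivation and arousal were close and deep aestivation stood above them. Solute carrier family 16, member 7 is another name for MCT2, yet its match isotig13626 differed from isotig09447, so the MCT2 matches had no common pattern. Isotig13626 had 30, 83 and 137 reads (15.1, 47.8 and 74.6 RPKM). It was 3.17-fold higher in deep aestivation (2.06 to 4.98) and 4.94-fold higher in arousal (3.31 to 7.60) than in non-aestivation. Over all 13 monocarboxylate transporter isotigs the reads were 210, 477 and 311, 2.60-fold higher in deep aestivation than in non-aestivation (2.21 to 3.07) and 1.62-fold lower in arousal than in deep aestivation (1.40 to 1.88). Without isotig09165 the step to arousal was 1.16-fold lower, with an interval that includes 1 (0.970 to 1.38).

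Other organic ion carriers followed several patterns. Choline transporter-like protein 2, isotig15436, had 4, 29 and 45 reads (2.98, 24.8 and 36.3 RPKM), 8.30-fold higher in deep aestivation (2.92 to 32.5) and 12.2-fold higher in arousal (4.44 to 46.6) than in non-aestivation. The match to solute carrier family 44, member 4, of the same choline carrier family, was isotig14154 with 28, 65 and 45 reads (16.5, 43.8 and 28.7 RPKM), named after its counts were known. It was 2.66-fold higher in deep aestivation than in non-aestivation (1.68 to 4.30) and was called in no other comparison. The choline transporter isotig08606 had 1, 0 and 13 reads, 4.09-fold higher in arousal than in deep aestivation with the 0 set to 3 reads. Organic anion transporter 4A1, which in mammals takes up thyroid hormones without sodium, was matched by 8 isotigs with 11, 59 and 50 reads in all, 6.14-fold higher in deep aestivation (3.20 to 13) and 4.92-fold higher in arousal (2.53 to 10.5) than in non-aestivation. One of them was called in deep aestivation, isotig18923 with 0, 16 and 3 reads. It was 6.11-fold higher than in non-aestivation with the 0 set to 3 reads. Because these isotigs have similar matches and only uniquely aligned reads were counted, their split of reads is uncertain.

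Carriers with their highest reads in arousal included bile acid and organic cation transporters. The match to solute carrier family 10, member 2, the sodium-coupled carrier that takes bile acids up in the mammalian ileum, was isotig25789 with 6, 3 and 29 reads (12.1, 6.91 and 63.2 RPKM). It was 9.13-fold higher in arousal than in deep aestivation (2.83 to 46.9) and 5.23-fold higher than in non-aestivation (2.13 to 15.4). Among the matches to solute carrier family 22, member 21, isotig26933 had 12, 7 and 28 reads and was 3.78-fold higher in arousal than in deep aestivation (1.61 to 10.3), and isotig14063 had 10, 24 and 49 reads and was 5.30-fold higher in arousal than in non-aestivation (2.65 to 11.7). Another isotig of this match, isotig21688, named after its counts were known, had 7, 16 and 30 reads and was 4.64-fold higher in arousal than in non-aestivation (2.00 to 12.5). The 6 family 22 isotigs summed to 31, 54 and 115 reads, 4.01-fold higher in arousal than in non-aestivation (2.68 to 6.18). The dicarboxylate carrier isotig14484, matched to solute carrier family 13, member 2, had 8, 4 and 22 reads and was 5.20-fold higher in arousal than in deep aestivation (1.77 to 20.7). In all, 28 of the 41 organic ion carriers compared were called in no comparison, with 2 to 159 reads each over the 3 libraries and a median of 13.5.

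Ion transporters as a sum did not differ beyond counting error between non-aestivation and deep aestivation, and were higher in arousal. The 22 isotigs had 275, 258 and 493 reads, 1.07-fold in deep aestivation over non-aestivation (0.903 to 1.28), 1.81-fold higher in arousal than in deep aestivation (1.55 to 2.11) and 1.94-fold higher than in non-aestivation (1.67 to 2.26). Of the 16 past the filter, 0 were called in deep aestivation over non-aestivation, where 5.19% of all isotigs were higher and 4.06% lower. The same 2 were higher in arousal than in each of the other libraries (12.5%, against 3.37% over deep aestivation and 3.84% over non-aestivation). One was isotig10999, matched to a putative sodium/phosphate cotransporter, with 35, 18 and 163 reads (36.4, 21.4 and 183 RPKM), 8.56-fold higher than in deep aestivation (5.25 to 14.8) and 5.04-fold higher than in non-aestivation (3.48 to 7.48). The other, isotig20684, matched the zinc transporter SLC39A7, which releases zinc from the endoplasmic reticulum in mammals. It had 26, 39 and 83 reads (34.5, 59.2 and 119 RPKM), 2.01-fold higher than in deep aestivation (1.36 to 3.02) and 3.45-fold higher than in non-aestivation (2.20 to 5.59).

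The other ion carriers had no calls. The sodium bicarbonate cotransporter isotig20761 had 16, 23 and 28 reads. The 2 isotigs matched to NHE3, the sodium/proton exchanger of the vertebrate brush border, summed to 25, 24 and 49 reads. The 2 matched to solute carrier family 34, a sodium/phosphate carrier, summed to 64, 42 and 35 reads, an order unlike that of isotig10999. The 6 zinc transporter isotigs, which include the called isotig20684, summed to 88, 87 and 155 reads. The 5 without it had 62, 48 and 72, 1.42-fold in arousal over deep aestivation with an interval that includes 1 (0.970 to 2.09). The 14 ion carriers without a call had 4 to 138 reads each over the 3 libraries, with a median of 45.5, which is deeper than the uncalled members of the amino acid class at a median of 24.

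ABC transporters as a sum were higher at each step. The 22 isotigs had 293, 453 and 887 reads, 1.77-fold higher in deep aestivation than in non-aestivation (1.53 to 2.06) and 1.85-fold higher in arousal than in deep aestivation (1.65 to 2.08). Of the 20 past the filter, 1 was higher in deep aestivation over non-aestivation (5%, against 5.19% of all isotigs). In arousal, 4 were higher than in deep aestivation (20%, against 3.37%) and 7 than in non-aestivation (35%, against 3.84%). In each comparison 0 were lower, against 4.06%, 5.31% and 5.21% of all isotigs, shares at which few of 20 isotigs would be lower. Much of the sum was isotig17740, matched to ABC subfamily B member 4a, of the group that includes the drug efflux pumps. It had 66, 117 and 388 reads (65.9, 134 and 419 RPKM), 3.13-fold higher in arousal than in deep aestivation (2.54 to 3.89) and 6.36-fold higher than in non-aestivation (4.89 to 8.39). Its 2.03-fold in deep aestivation over non-aestivation (1.49 to 2.79) was the 1 call of the class there and was lost under median-ratio, TMM and upper-quartile scaling.

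The remaining ABC calls were in subfamilies A, B, C, D and G, some of whose members move lipids in mammals. Subfamily A isotig14200 had 13, 26 and 97 reads (7.73, 17.7 and 62.5 RPKM), 3.53-fold higher in arousal than in deep aestivation (2.27 to 5.66) and 8.07-fold higher than in non-aestivation (4.51 to 15.7). Isotig17944, with the same description, had 5, 15 and 36 reads and was 7.79-fold higher in arousal than in non-aestivation (3.05 to 25.4). Isotig15304, matched to member 1 of this subfamily, an exporter of cholesterol and phospholipid, had 76, 89 and 65 reads and was not called, so subfamily A did not follow 1 pattern. The match to ABCD3, which brings fatty acyl groups into peroxisomes, was isotig20595 with 24, 16 and 58 reads (31.2, 23.8 and 81.5 RPKM), 3.43-fold higher in arousal than in deep aestivation (1.94 to 6.38) and 2.62-fold higher than in non-aestivation (1.60 to 4.40). An ABCB1a match, isotig19932 with 7, 3 and 21 reads, was 6.61-fold higher in arousal than in deep aestivation (1.98 to 34.6), and the subfamily G member 2a match isotig15021 with 6, 20 and 28 reads was 5.05-fold higher in arousal than in non-aestivation (2.05 to 14.9). The 9 subfamily C isotigs summed to 69, 117 and 137 reads. Of these, isotig15857 with 20, 29 and 60 reads and isotig17360 with 13, 22 and 35, both chosen after their values were seen, were called higher in arousal than in non-aestivation. The 12 ABC isotigs without a call had 4 to 230 reads each over the 3 libraries, with a median of 16.5.

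Aquaporins had the opposite order to the ABC and sugar transporters. The 4 isotigs had 169, 103 and 47 reads, 1.43-fold lower in deep aestivation over non-aestivation (1.11 to 1.85) and 2.32-fold lower in arousal than in deep aestivation (1.63 to 3.35). Most of these reads were aquaporin-4. Without it the other 3 had 44, 33 and 22 reads, 1.85-fold lower in arousal than in non-aestivation (1.08 to 3.24), and the intervals of the 2 smaller steps included 1. Aquaporin-4, the match of isotig15882 and a water channel in vertebrates, had 125, 70 and 25 reads (99.6, 63.9 and 21.5 RPKM). It was 2.96-fold lower in arousal than in deep aestivation (1.85 to 4.88) and 4.62-fold lower than in non-aestivation (2.99 to 7.41), and was not called in deep aestivation over non-aestivation. The glyceroaquaporin isotig19870, of the group that also passes glycerol, had 37, 33 and 22 reads and was not called. The aquaporin isotig08847 had 4, 0 and 0 reads, too few to compare.

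Nucleoside and nucleotide sugar transporters were at low depth. Their 5 isotigs summed to 27, 40 and 46 reads, and 0 were called. The equilibrative nucleoside transporter isotig22610 had 7, 23 and 12 reads, the concentrative transporter isotig26836 had 6, 6 and 14, and isotig22778, matched to solute carrier family 28, member 3, had 8, 1 and 10. The 2 heme transporter isotigs, isotig07666 with 1, 2 and 1 reads and isotig07667 with 0, 1 and 4, were not called either. The rule also took in 3 isotigs whose match is not a transporter itself. They were 2 matches to regulator 1 of the sodium/hydrogen exchanger, a scaffold protein, with 17, 11 and 7 reads in isotig07362 and 15, 7 and 9 in isotig07363, and the ecto-NOX protein isotig19373 with 7, 11 and 7. None of the 3 was called.

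**Figure D3:**
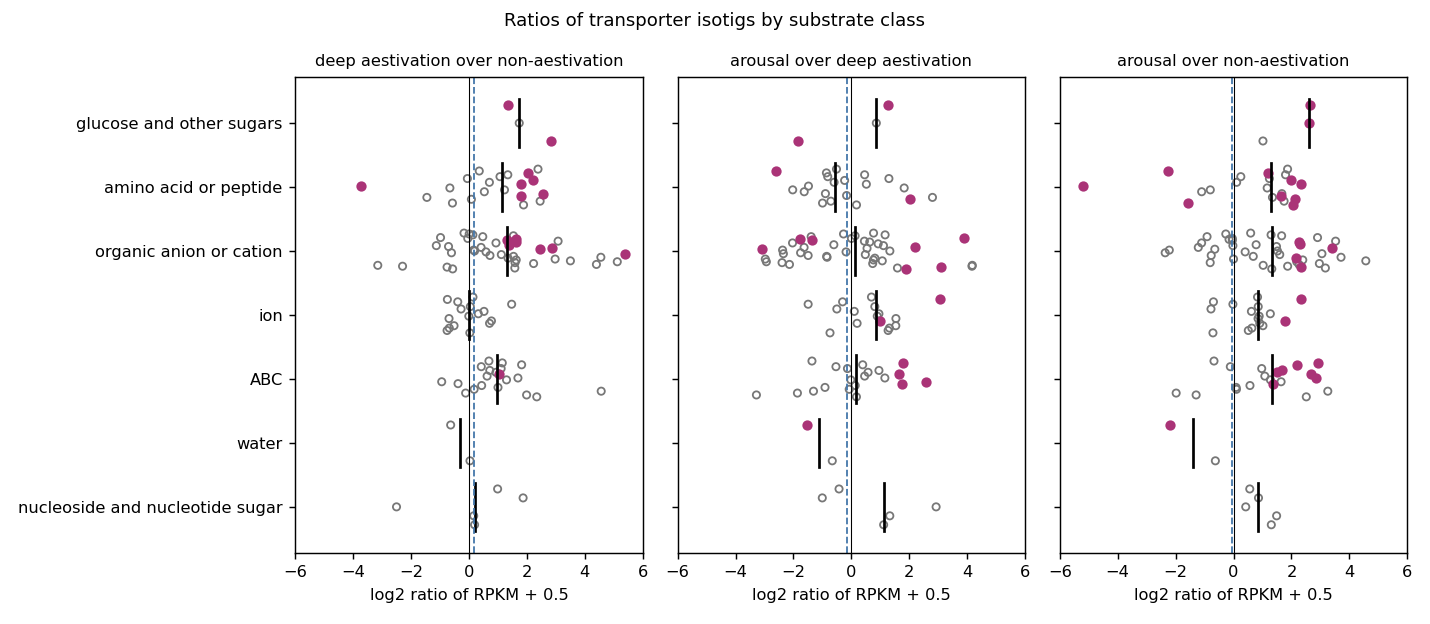
Log2 ratio of RPKM + 0.5 for each member past the filter in the 3 comparisons, by substrate class; filled points are calls, black bars are class medians and the dashed line is the median of all isotigs. The calls of the ABC and ion classes lie to the right of 0 in each panel that has one, and the amino acid class has calls on both sides. Lower calls were 4.06%, 5.31% and 5.21% of all isotigs in the 3 comparisons, so few would be seen in classes of 20 and 16.

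Calls against both other libraries separate the members by which library stood apart. Arousal was higher than both others for 8 members (7.14%, against 1.42% of all isotigs) and non-aestivation was lower than both others also for 8 (7.14%, against 1.19%). Deep aestivation was higher than both for 4 (3.57%, against 1.95%) and lower than both for 0 (against 1.16%). Arousal was lower than both for 2 (1.79%, against 2.09%), the glycine transporter isotig06046 and aquaporin-4, and non-aestivation was higher than both for 1 (0.893%, against 1.59%), the cystine/glutamate transporter isotig15733. Isotig13835 and isotig17740 were both low in non-aestivation and high in arousal against both others. For isotig17740 the call in deep aestivation over non-aestivation was lost under median-ratio, TMM and upper-quartile scaling. Of the 74 members with at least 20 reads, the highest RPKM was found in the non-aestivation library for 12.2%, the deep aestivation library for 39.2% and the arousal library for 48.6%, against 25.1%, 40.3% and 34.6% of 5665 isotigs with a protein match and that many reads. For calls against both others, the shares given are of all isotigs past the filter. Isotigs with a protein match and at least 20 reads are called higher more often in each comparison, and their share was not computed for these patterns. Calls are descriptions of these libraries, since each of these patterns uses a library more than once.

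Among genes that drive or scaffold epithelial transport or release its substrates, which are not transporters by the rule, the arousal library was also often the highest. Of 38 such isotigs, 35 passed the filter. In deep aestivation over non-aestivation 7 were higher and 0 lower, in arousal over deep aestivation 11 higher and 2 lower, and in arousal over non-aestivation 15 higher and 1 lower. The 4 sodium/potassium ATPase isotigs summed to 731, 659 and 1400 reads. Of its 2 abundant alpha subunit isotigs, isotig18436 had 493, 427 and 837 reads and was called in no comparison, at 1.85-fold in arousal over deep aestivation (1.65 to 2.09). The other, isotig17841, had 197, 211 and 493 reads, 2.21-fold higher in arousal than in deep aestivation (1.88 to 2.61) and 2.71-fold higher than in non-aestivation (2.29 to 3.21). Both had their highest value in arousal. The 8 proton ATPase isotigs were nearer to each other, at 382, 444 and 536 reads. Brush border hydrolases, which cut sugars and peptides for uptake, summed to 1632, 3154 and 5210 reads over 22 isotigs. Of these reads, isotig13364, matched to maltase 1, gave 434, 1792 and 1580, more than any other in deep aestivation. Of the 20 past the filter, 6 were higher and 0 lower in deep aestivation over non-aestivation. In arousal, 9 were higher and 2 lower than in deep aestivation, and 12 higher and 1 lower than in non-aestivation. Over all isotigs the higher calls were 5.19%, 3.37% and 3.84% and the lower calls 4.06%, 5.31% and 5.21%. Carbonic anhydrase had 2, 1 and 3 reads over 2 isotigs, and villin and ERM proteins had 4, 27 and 14 over 2.

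Gene ontology terms rest on protein matches, as does the choice of members, so these terms describe the members and support nothing. Of the 126, 80 carried a term, and of these 28.8% had the term membrane and 25% the term transport. The members' median mean RPKM was 9.97, against 9.39 for isotigs with a match, and their median length was 1031 bases (326 to 4783). The best match came from the sea urchin Strongylocentrotus purpuratus for 61.9% of members and 46.5% of matched isotigs. There were 88 different best matches, and 23 of them were shared by 61 members, up to 6 on 1 match. Such isotigs can be pieces or copies of 1 gene, and reads may divide between them.

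Depth limited what could be called. The median member had 6, 8.5 and 10 reads, the median coverage of a member's length was 29.5%, 40% and 37.6%, and 28 members had 0 reads in at least 1 library. Against 0 reads in non-aestivation, at least 10 reads in deep aestivation were needed for a call. A count of 0 allows up to 2.93, 3.36 and 3.18 RPM in the 3 libraries. Of the 112 members compared, 37 were called in at least 1 comparison and 75 in none. Of those 75, only isotig09071, with 159 reads, had 95% intervals within 2-fold in all 3 comparisons. For the other 74, at least 1 interval reached a 2-fold difference, so one of that size was not excluded at this depth.

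**Figure D4:**
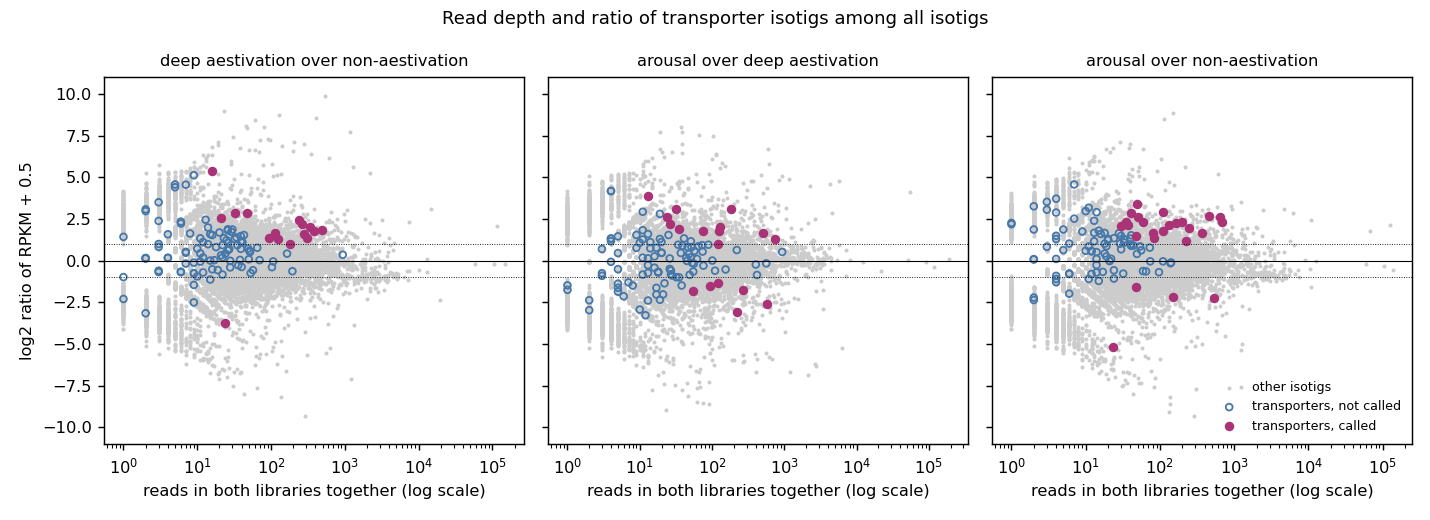
Log2 ratio of RPKM + 0.5 against the reads in both libraries together (log axis) for all isotigs that passed the filter; filled points are called members, open points are other members, and dotted lines mark a 2-fold ratio. Members under about 10 reads scatter widely without being called.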

How the data were processed

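Per the labels' protocols, total RNA was DNase-treated, mRNA was enriched on oligo(dT) beads and fragmented, and cDNA from random primers was PCR-amplified. CASAVA 1.5 is named in the submitters' processing notes. The aligner, the assembler and the strandedness are not named in these sources. The authors' tables, per the file headers, give for each isotig a count of uniquely aligned reads, its length, the percent of it that was covered, RPKM, gene ontology terms and a best protein match. An isotig absent from a table was taken as 0 reads.

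From these, log2 ratios of the deposited RPKM with a pseudocount of 0.5, and folds with exact intervals from the counts, were computed with Python 3.11.15, numpy 2.4.6, pandas 2.3.3 and scipy 1.17.1, and figures with matplotlib 3.10.9. Scaling factors came from edgeR 4.0.16 and DESeq2 1.42.0 in R 4.3.3. Both were used for scaling alone, as no test is possible with 1 library per stage. Where a library had 0 reads, the fold is a bound that sets it to 3 reads and leaves out counting error in the other library. Without molecular identifiers, PCR copies count as separate reads, so intervals and floors cover counting error only. The calling rule was tested on simulated counts with counting error alone, where only isotigs with many reads were changed, by more than 2-fold. That test does not show how often changes in isotigs with few reads are found. It does not cover differences between animals or PCR copies.

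Substrate classes were read from the match text, by solute carrier family number where given. Isotigs were named by a rule: per class, the 3 with the highest mean RPKM, up to 4 called in each direction per comparison with the largest ratio, and all called in deep aestivation against both others. The members, lists and rules were chosen with earlier results of these data known. The alternatives were other scalings, pseudocounts of 0.1 and 1, other filters, other call thresholds, and isotigs with 1 match summed. Leaving out the 20 most abundant isotigs from the total, requiring 20 reads, dropping matches that are not transporters, and leaving each member out of its class or family sum in turn were chosen after seeing the data. The reference gene table matched 0 isotig identifiers, so no coordinates are given.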

Additional observations from a re-analysis of the deposited data

How the results depend on the processing

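No paired analysis was possible because each stage had 1 library. The counts of called members depended on the fold and the interval asked for. The largest moves came with a 2-fold ratio alone, where 48 members were higher and 6 lower in deep aestivation over non-aestivation, 31 and 26 in arousal over deep aestivation, and 58 and 12 in arousal over non-aestivation. With a 4-fold ratio and the same interval, 7 were higher in deep aestivation over non-aestivation, and 6 were higher and 2 lower in arousal over deep aestivation. With isotigs of the same best match summed, 0 were lower in deep aestivation over non-aestivation. Of 128 alternative values of the main counts and medians, 118 kept their direction and stayed within the limits set for a change, and 0 reversed. Across the 4 other scalings, 14 to 16 of the 16 calls in deep aestivation over non-aestivation were kept, all 18 in arousal over deep aestivation, and 25 of the 26 in arousal over non-aestivation. Scaling moved the median of all isotigs in deep aestivation over non-aestivation by between -0.12 and 0.08 on the log2 scale, and in arousal over deep aestivation by up to 0.16. Over all isotigs, the higher and lower calls in deep aestivation over non-aestivation were 952 and 745, but 721 and 954 under median-ratio and 1075 and 645 under the total without the 20 most abundant isotigs. In arousal over deep aestivation they were 619 and 975, but 857 and 723 under TMM, and in arousal over non-aestivation 704 and 956, but 896 and 745 without those 20. The cause was not tested.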
